A study of Bos taurus with 90 samples.

Results

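The miRNAs described here are those encoded inside the HOX gene clusters that the files name, namely miR-10a, miR-10b, miR-196a, miR-196b and miR-615. They were chosen by name, as 5 of the 388 miRNAs listed in any tissue, and were followed over the mammary gland, the liver and 3 parts of the digestive tract (rumen, duodenum and jejunum) of mid-lactation Chinese Holstein cows. Each tissue had 18 samples, 6 from cows on a rice straw diet, 6 on corn stover and 6 on alfalfa hay, and diet was the only difference that the labels give between samples of a tissue. The labels give the rumen, duodenum and jejunum samples as epithelium and name no layer for liver and mammary gland. Each sample was a piece of tissue, in which fewer cells of a type and less RNA per cell cannot be told apart. Small RNA was sequenced, and the values are CPM, the reads of a miRNA per 1000000 reads mapped to annotated miRNAs.

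HOX genes are transcription factors that lie in ordered clusters and give cells a position along the body axis, with genes at one end of a cluster used towards the head and genes at the other end towards the tail. A few miRNA genes lie between them and are transcribed with their neighbours. The miR-10 and miR-196 families are known to repress HOX mRNAs, and miR-10b and miR-196 have also been studied for their part in cell migration. In the RefSeq annotation of the cattle assembly ARS-UCD2.0, MIR10A lies within the span of HOXB3 between HOXB5 and HOXB4, and MIR10B lies within HOXD4. The mature miR-196a can come from either of a pair of genes, MIR196A-1 within the span of HOXB9 and MIR196A-2 between HOXC9 and HOXC10. MIR196B lies between HOXA10 and HOXA9, and MIR615 lies within HOXC5.

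A tissue's files list a miRNA only where it exceeded 1 CPM in at least 9 of the 18 samples, and a miRNA that is not listed has no value. All 5 tissues listed miR-10a and miR-10b. miR-196a was listed in rumen, duodenum, jejunum and mammary gland but not in liver. miR-196b was listed in mammary gland alone and miR-615 in rumen alone. The number of members with values was therefore 2 for liver, 3 for either part of the small intestine and 4 for both rumen and mammary gland.

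Sequencing depth ranged from 937556 to 15621501 mapped miRNA reads per library, so 3 reads were worth between 0.192 and 3.20 CPM. The tissue labels were checked against marker miRNAs. miR-122, the hepatocyte miRNA, was at 8671 to 12721 CPM in liver and at no more than 48.5 CPM in mammary gland, and the 3 digestive tract tissues did not list it. The summed level of miR-192, miR-194 and miR-215, which mark intestinal epithelium, was at least 231619 CPM in duodenum and 144396 CPM in jejunum against at most 4561 CPM in rumen, and was also high in liver, at 122056 to 195995 CPM. miR-205, a miRNA of stratified epithelium, was at 23016 to 52132 CPM in rumen. It was also at 768 to 8442 CPM in mammary gland, at no more than 1525 CPM in liver and 5.07 CPM in duodenum, and jejunum did not list it. miR-203, of the same marker list, was not listed in any tissue. miR-143 and miR-145, which mark smooth muscle, were also abundant in the samples given as epithelium, where they summed to at least 118233 CPM in rumen, 105624 CPM in duodenum and 147053 CPM in jejunum. Most of this was miR-143, which was also at 81811 to 177119 CPM in liver and at 69396 to 226993 CPM in mammary gland.

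Some libraries stood apart from the rest of their tissue. In jejunum, corn stover replicates 1, 2 and 6 held 221 to 440 CPM of miRNAs outside the jejunum list, against 44.9 to 72.6 CPM in the other 15 libraries. In mammary gland, rice straw replicates 1 and 5 and alfalfa hay replicate 1 had 22, 16 and 45 listed miRNAs at 0, against at most 3 in any other library of that tissue. They were also its shallowest libraries, at 1875290, 1527304 and 937556 mapped reads in the same order. In liver, alfalfa hay replicate 2 held 1525 CPM of miR-205, against at most 13 CPM in the other 17. These libraries were noticed after their values were seen, and the results that rest on them are given with and without them.

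miR-10b was the most abundant of the members, by the median, in mammary gland, rumen and duodenum, and miR-10a in jejunum and liver. In mammary gland miR-10b ranged from 49952 to 235766 CPM with a median of 74430, and by its mean level it had rank 4 of 328 miRNAs. In rumen it ranged from 16477 to 42449 CPM with a median of 29106, and in jejunum from 16480 to 75615 CPM with a median of 26951. Duodenum was lower, from 9477 to 25804 CPM with a median of 15805. Liver was far below, from 219 to 6005 CPM with a median of 817. The mammary gland range did not overlap with those of rumen, duodenum and liver, and the liver range did not overlap with that of any other tissue.

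miR-10a followed another order over the tissues. It was highest in jejunum, from 26635 to 95217 CPM with a median of 30864. Rumen held 5979 to 25870 CPM with a median of 13818, and duodenum 3468 to 26674 CPM with a median of 11782. Mammary gland held 2466 to 6892 CPM with a median of 4154, and liver 1516 to 8685 CPM with a median of 2888. The jejunum range lay above those of rumen, liver and mammary gland, and overlapped with that of duodenum only between 26635 and 26674 CPM. Together miR-10a and miR-10b took 10.01% ± 5.02 (SD, n = 18) of the mapped reads in mammary gland, 7.89% ± 3.93 in jejunum, 4.29% ± 1.20 in rumen, 2.97% ± 1.024 in duodenum and 0.462% ± 0.316 in liver.

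The miR-196 members were far less abundant. miR-196a ranged from 37.3 to 282 CPM in mammary gland with a median of 144, and from 4.21 to 324 CPM in jejunum with a median of 14.97. It was low in duodenum, from 0.384 to 12.5 CPM with a median of 2.09, and in rumen, from 0.683 to 5.17 CPM with a median of 2.86. The lowest values rested on few reads, 3 in rumen and 6 in duodenum. Mammary gland did not overlap with rumen or duodenum. miR-196b, which mammary gland alone listed, ranged from 19.2 to 130 CPM with a median of 54.4. miR-615 ranged from 0.665 to 4.85 CPM in rumen with a median of 2.08, on 5 to 20 reads per library, so that its values carry a large counting error.

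**Figure D1:**
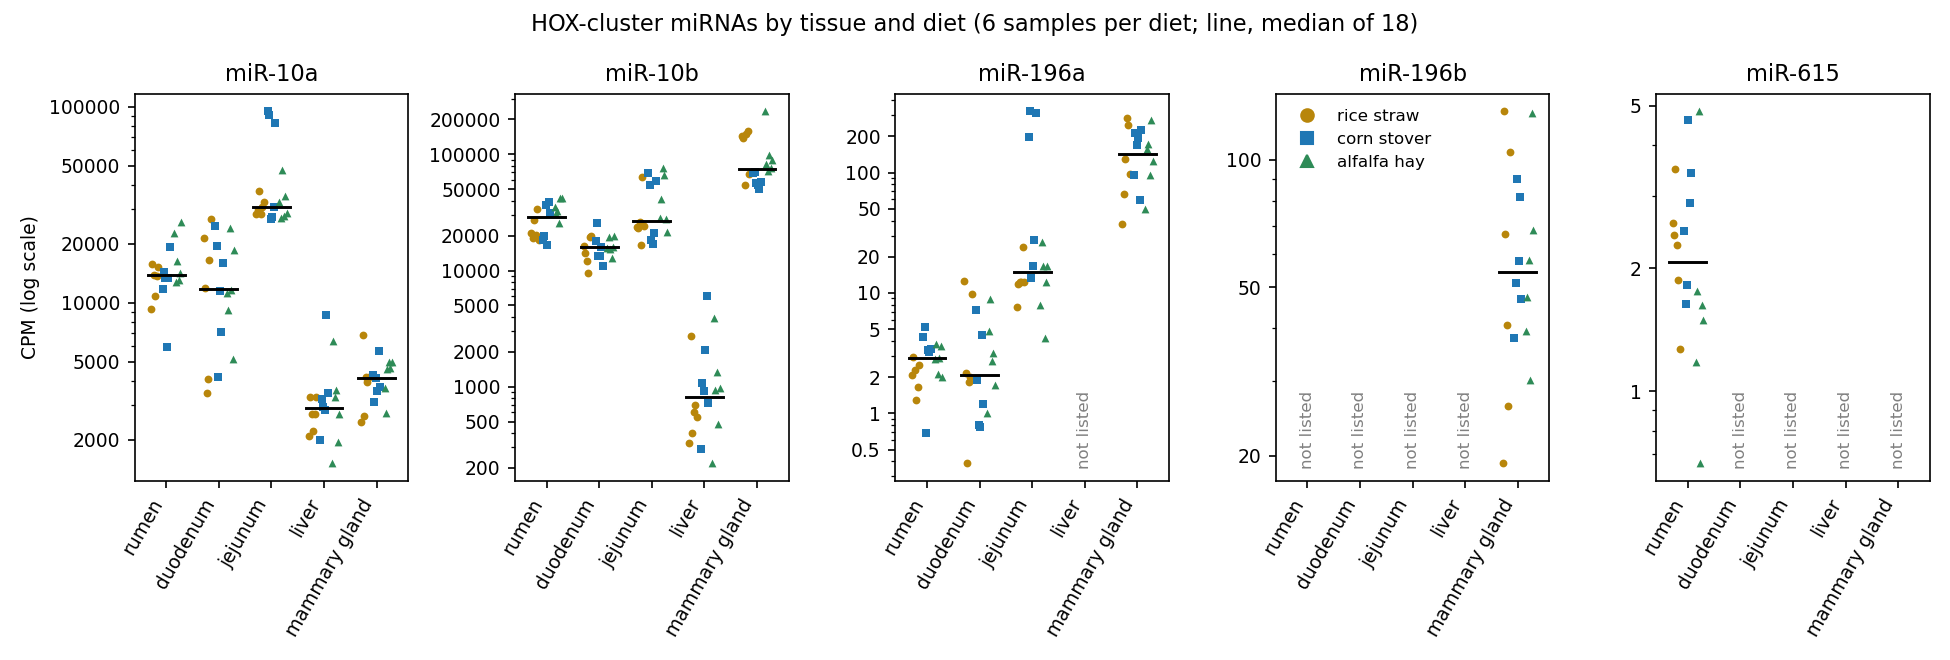
CPM of each miRNA on a log axis by tissue, with 1 point per sample, coloured by diet, and a line at the median of 18 samples. miR-10a is highest in jejunum and miR-10b in mammary gland, 3 corn stover points stand above the rest in jejunum for miR-10a and miR-196a, and tissues that do not list a miRNA are marked.

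Each pair of tissues was compared with limma on log2(CPM + 1) in the 36 samples of both tissues, over all miRNAs listed in both, with Benjamini-Hochberg adjustment over them and a threshold of 0.05. Differences below are on this log2 scale with the SE, and a fold change of a low miRNA is understated by the added 1 CPM. Of the 26 tests of members, 23 passed the threshold. Most miRNAs differed between most tissues, so that counts of members say little by themselves. The share of all miRNAs passing was 75.8% for duodenum against rumen, 73.8% for jejunum against rumen, 84.5% for liver against rumen and 72% for mammary gland against rumen. It was 85% for liver against duodenum, 75.6% for mammary gland against duodenum, 85.3% for liver against jejunum, 70.5% for mammary gland against jejunum and 65% for mammary gland against liver. It was lower, at 24.2%, for jejunum against duodenum.

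Along the digestive tract the members rose from duodenum to jejunum. miR-10a was higher in jejunum by 1.69 ± 0.25 (adjusted p = 8.2e-06), miR-10b by 1.08 ± 0.19 (adjusted p = 5.0e-05) and miR-196a by 2.64 ± 0.44 (adjusted p = 3.0e-05), while the median of the 331 miRNAs tested was 0.03. All 3 differences also passed without the 3 jejunum libraries that stood apart, at 1.44 for miR-10a, 0.90 for miR-10b and 1.94 for miR-196a, where 63 of all 331 miRNAs passed. Within single diets all 3 passed on corn stover, where 118 of all 331 miRNAs passed, and on alfalfa hay, where 44 passed. On rice straw none of the 3 passed limma's threshold (adjusted p = 0.13 for miR-10a and miR-196a and 0.25 for miR-10b), although their differences were 1.52, 0.86 and 1.70, each had an unadjusted p under 0.05, and 2 of all 331 miRNAs passed there.

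Rumen and duodenum differed in miR-10b, which was lower in duodenum by 0.80 ± 0.13 (adjusted p = 8.8e-07). miR-10a differed by -0.28 between duodenum and rumen, with a 95% interval from -0.75 to 0.20, and edgeR and DESeq2 on the reads turned this sign, to 0.11 and 0.10. miR-196a differed by 0.06, with an interval from -0.43 to 0.55, and its sign also turned with a pseudocount of 0.1 CPM and within corn stover. Neither passed the threshold. Jejunum exceeded rumen in miR-10a by 1.42 ± 0.17 (adjusted p = 2.3e-09) and in miR-196a by 2.70 ± 0.40 (adjusted p = 1.4e-07). miR-10b differed there by 0.28, with an interval from -0.13 to 0.69 (adjusted p = 0.22), and passed with edgeR (0.62, adjusted p = 0.018) and DESeq2 (0.64, adjusted p = 0.0099).

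Liver had less of both miR-10 miRNAs than the tract tissues. miR-10b differed by -4.94 ± 0.31 against rumen, -4.13 ± 0.30 against duodenum and -5.21 ± 0.33 against jejunum. For miR-10a the differences were smaller, -2.22 ± 0.17, -1.94 ± 0.25 and -3.63 ± 0.19 in the same order. All 6 adjusted p values were at most 3.0e-09. The median of all tested miRNAs was also below 0 in these comparisons, from -0.43 to -0.27, and moved above 0 with upper-quartile scaling, which left all 6 member differences past the threshold.

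Mammary gland had more miR-10b and miR-196a, and less miR-10a, than each tract tissue. miR-10b was higher by 1.67 ± 0.18 against rumen, 2.47 ± 0.17 against duodenum and 1.397 ± 0.22 against jejunum, and by 6.61 ± 0.32 against liver, the largest difference of any member in any pair. miR-196a was higher by 5.16 ± 0.23 against rumen, 5.10 ± 0.29 against duodenum and 2.46 ± 0.42 against jejunum. miR-10a was lower, at -1.79 ± 0.15, -1.52 ± 0.23 and -3.21 ± 0.17 in the same order. The highest adjusted p among these 10 was 2.3e-06. The difference in miR-196a against jejunum did not pass within corn stover (1.002, adjusted p = 0.25), where 3 jejunum libraries were as high as mammary gland. miR-10a exceeded its level in liver by 0.42 ± 0.17 (adjusted p = 0.027), and this call was lost with upper-quartile scaling (0.11, adjusted p = 0.64), with TMM scaling, with edgeR, with DESeq2 and within each diet. Leaving out the 3 mammary gland libraries or the 1 liver library changed none of the member calls.

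**Figure D2:**
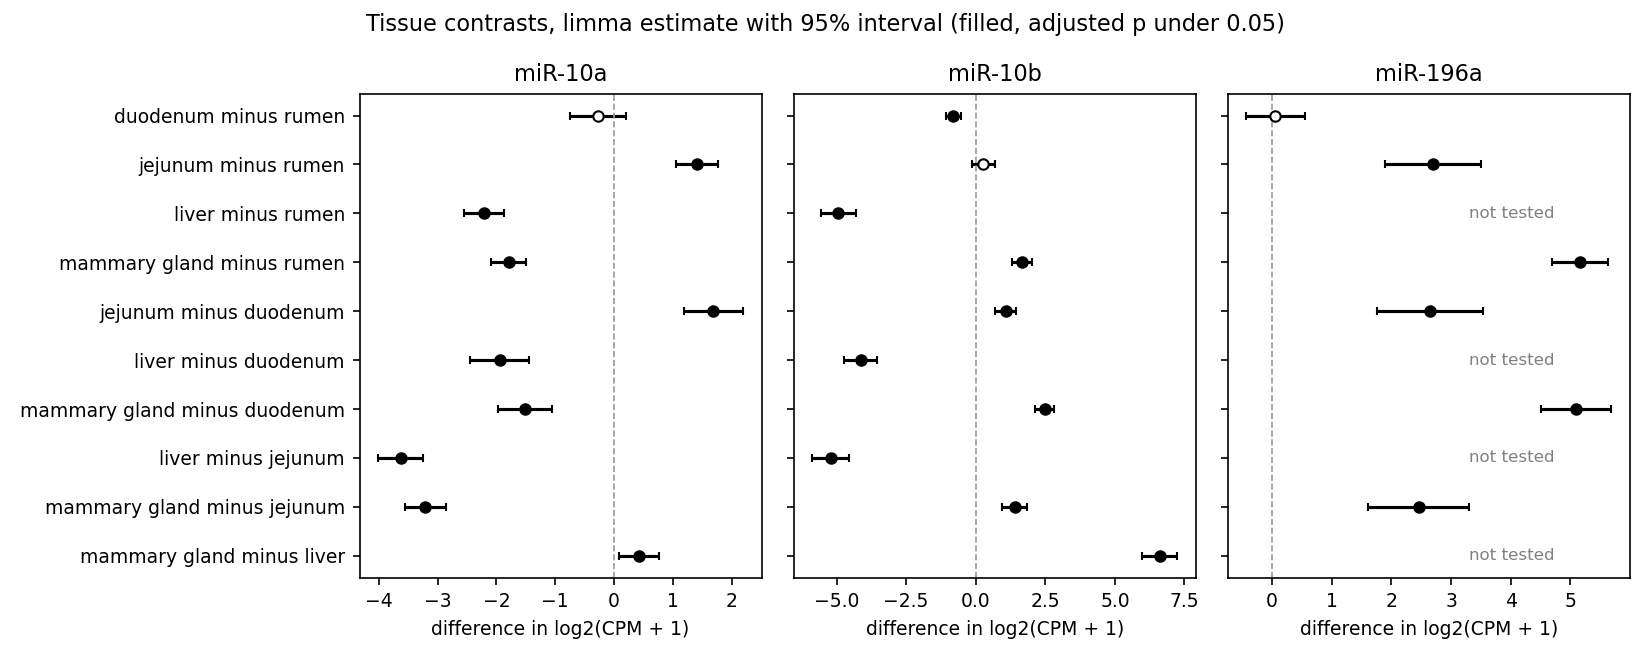
Difference in log2(CPM + 1) between tissues for miR-10a, miR-10b and miR-196a, with the limma estimate and its 95% interval in 36 samples per pair. Filled points passed an adjusted p of 0.05, which 23 of 26 did, and the open points are miR-10a and miR-196a for duodenum against rumen and miR-10b for jejunum against rumen.

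The ratio of miR-10a to miR-10b within a sample does not depend on library scaling. Its log2 value was 1.76 ± 0.83 (SD, n = 18) in liver, 0.18 ± 0.62 in jejunum, -0.44 ± 0.80 in duodenum, -0.96 ± 0.42 in rumen and -4.43 ± 0.75 in mammary gland. miR-10a exceeded miR-10b in 18 of 18 liver samples, in 14 of 18 of jejunum, in 5 of 18 of duodenum and in none of rumen or mammary gland. All 10 pairs of tissues differed in a two-sided permutation test with 100000 resamples, adjusted over the pairs. In 8 of them the p was 2.0e-05, the smallest the resamples can give, and the weakest were jejunum against duodenum (difference 0.61, adjusted permutation p = 0.018) and duodenum against rumen (0.53, adjusted permutation p = 0.019). With medians in place of means, jejunum against duodenum gave an adjusted permutation p of 0.067. Because the alignment allowed mismatches, reads could be shared between these near-identical miRNAs, and their separate levels are uncertain to that extent.

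**Figure D3:**
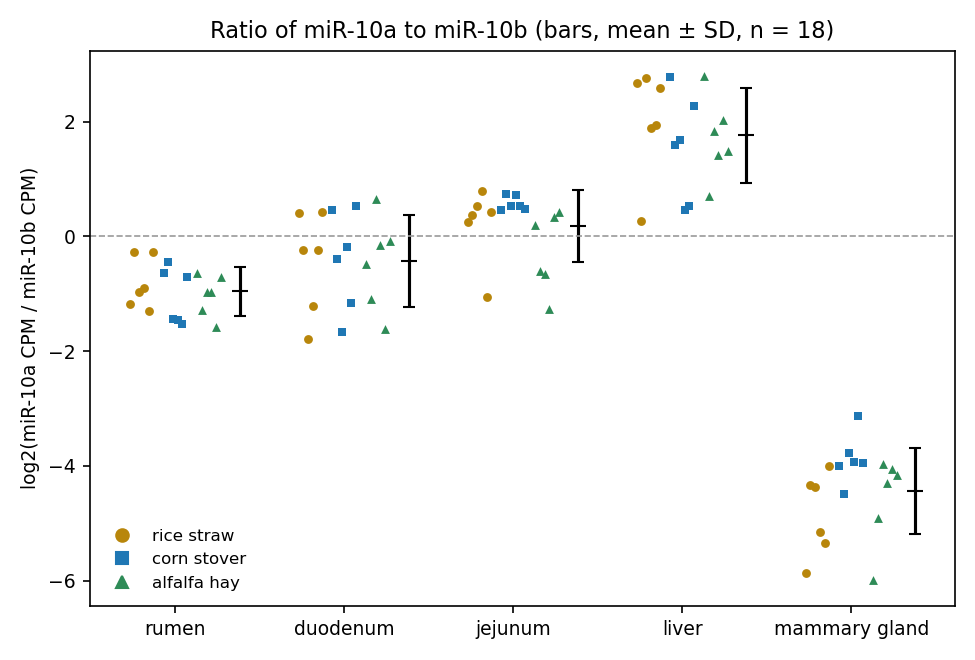
Log2 ratio of miR-10a CPM to miR-10b CPM in each sample, by tissue and diet, with the mean and SD of 18 samples beside each tissue. Values lie above 0 in all 18 liver samples and below 0 in all 18 samples of rumen and of mammary gland, where the highest is -3.13.

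The spread between samples was large for the members in jejunum. The SD of log2(CPM + 1) of miR-196a was 1.73, the second largest of the 337 miRNAs listed there, against a median SD of 0.364. For miR-10b it was 0.777, larger than in 94.1% of the listed miRNAs, and for miR-10a it was 0.621, larger than in 86.1%. Corn stover replicates 1, 2 and 6 were at 197, 324 and 310 CPM of miR-196a, while the other 15 jejunum libraries were between 4.21 and 27.7 CPM. The same 3 libraries were the highest in miR-10a, at 95217, 91040 and 83090 CPM against 26635 to 47729 CPM in the others.

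miR-10b in jejunum did not follow that division. The 3 libraries were at 69678, 54610 and 59430 CPM, but alfalfa hay replicates 3 and 4 were at 75615 and 66518 CPM and rice straw replicate 5 at 64189 CPM, while the other 3 corn stover libraries were at 16763 to 21223 CPM. The high values of miR-10b were thus found on every diet. Without the 3 corn stover libraries the SD of miR-10b was 0.723 and still larger than in 94.96% of the listed miRNAs. That of miR-10a fell to 0.222 (larger than in 11.3%) and that of miR-196a to 0.654 (larger than in 91.4%).

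Other miRNAs moved with the same 3 jejunum libraries. The summed level of miR-126-3p and miR-126-5p, which mark endothelium, was 8000 to 12443 CPM there and 14560 to 29441 CPM in the other 15. The immune list of 5 miRNAs summed to 18567 to 20426 CPM there and to 20154 to 31481 CPM in the others. The summed level of the 3 intestinal epithelium miRNAs overlapped, at 157044 to 305331 CPM against 144396 to 298094 CPM. So did that of miR-143 and miR-145 of smooth muscle, at 184453 to 269027 CPM against 147053 to 296908 CPM. These sums are mostly miR-192 (median 179344 against 195498 CPM) and miR-143 (221904 against 197137 CPM). The medians of the other members, with overlapping ranges, were 14170 against 8804 CPM for miR-194, 48096 against 22691 CPM for miR-215 and 1355 against 2511 CPM for miR-145. miR-31, chosen after its values were seen, was at 8.13 to 37.7 CPM against 183 to 478 CPM. In the enteroendocrine and neural list the members went both ways. miR-375 was at 5303 to 6948 CPM against 2669 to 5344 CPM. The other members had lower medians in the 3 libraries, at 19.9 against 46.1 CPM for miR-7, 130 against 185 CPM for miR-9-5p and 1.60 against 6.10 CPM for miR-124a. Of the 28 marker miRNAs that jejunum lists, 3 lay lower in all 3 libraries than in any of the other 15, and none lay higher in all 3. The lower ones were miR-126-3p, miR-126-5p and miR-7 (18.2 to 24.6 CPM against 26.8 to 65.4 CPM). No share over all 337 listed miRNAs is given beside this count, which says little by itself. The part of these differences in the levels of the members was not tested.

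**Figure D4:**
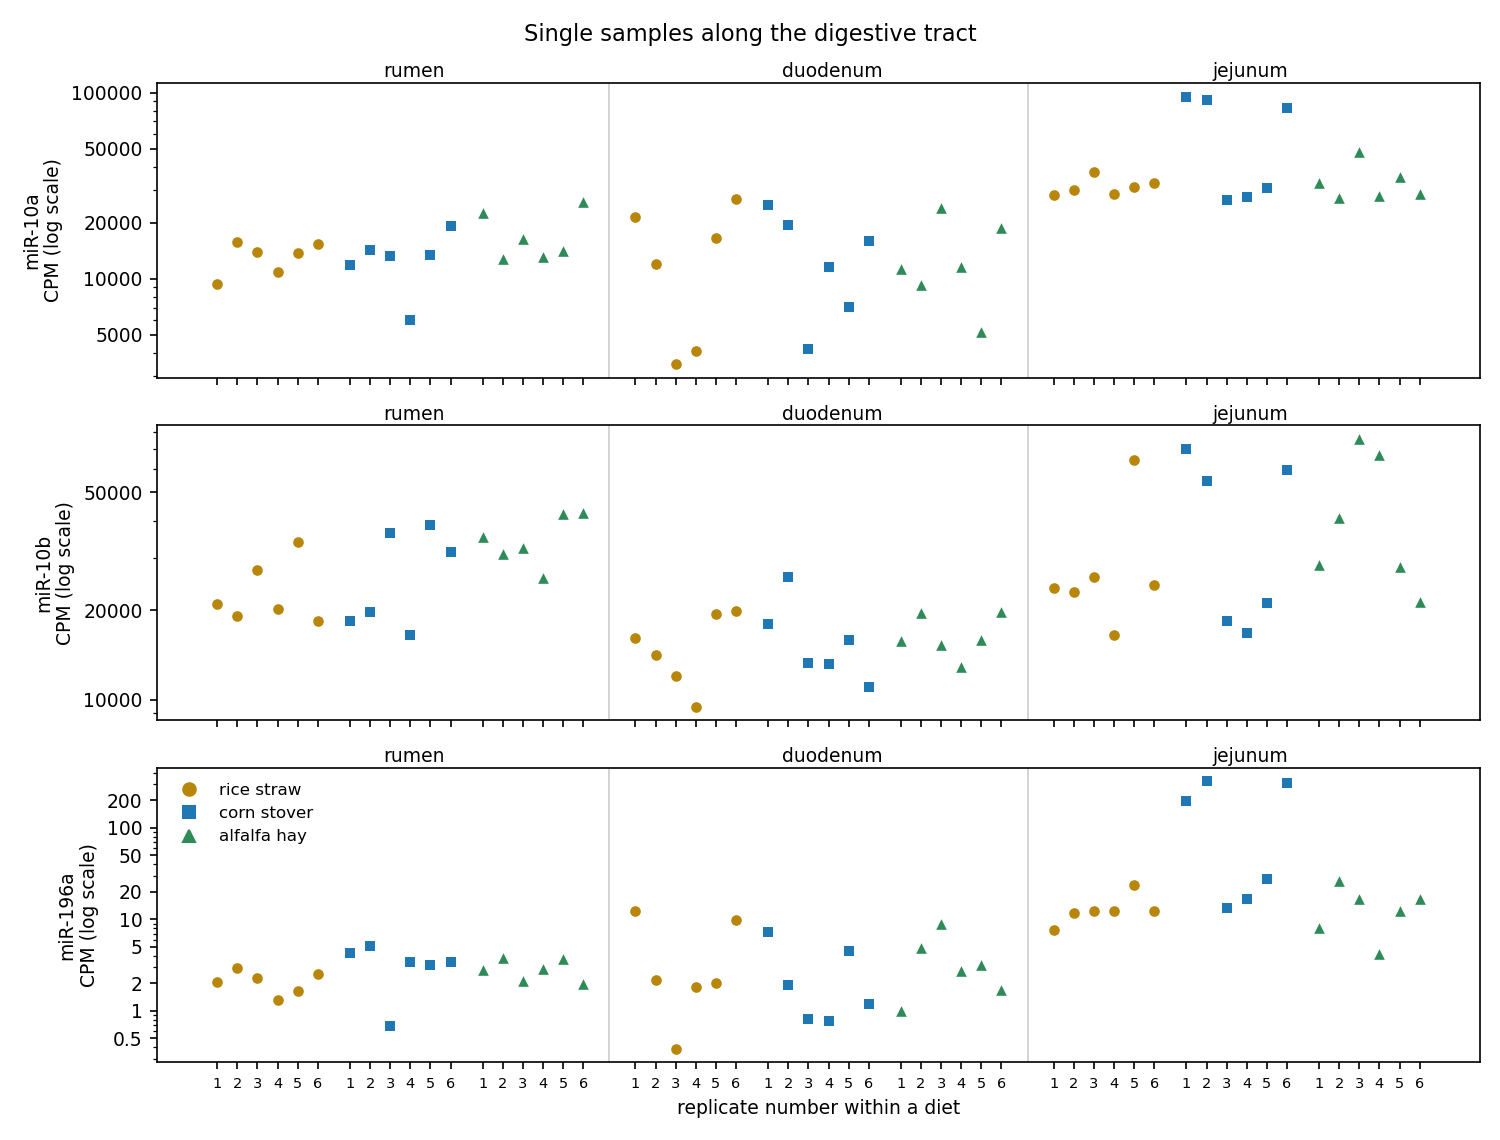
CPM of miR-10a, miR-10b and miR-196a on log axes in each sample of rumen, duodenum and jejunum, by diet and replicate number. In jejunum, corn stover replicates 1, 2 and 6 are the highest for miR-10a and miR-196a, whereas high values of miR-10b also occur on rice straw and alfalfa hay, and in duodenum low and high values of miR-10a occur on each diet.

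In duodenum miR-10a and miR-196a also varied more than nearly all miRNAs, with SDs of 0.953 (rank 4 of 338) and 0.975 (rank 3), and miR-10b did not (0.354, near the median of 0.320). This spread lay within diets: with the diet means removed the SDs were 1.01 for miR-10a and 1.016 for miR-196a. Low and high samples of miR-10a were found on each diet, from 3468 to 26674 CPM on rice straw, from 4202 to 24774 CPM on corn stover and from 5175 to 24033 CPM on alfalfa hay. In liver miR-10b had the second largest SD of 330 miRNAs (1.30), and its 3 highest samples were corn stover replicate 5 at 6005 CPM, alfalfa hay replicate 2 at 3938 CPM and rice straw replicate 2 at 2753 CPM. Alfalfa hay replicate 2 is the liver library with miR-205, and it also had the highest summed level of the miR-200 family of epithelial miRNAs, at 1896 CPM against at most 737 CPM in the other 17 libraries. The part of this in its miR-10b was not tested. In rumen the members lay near the median SD of 0.465, from 0.452 to 0.475.

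The members were compared across samples within a tissue, on log2(CPM + 1), in 16 pairs. In liver miR-10a and miR-10b varied together (Pearson's r = 0.87, permutation p = 2.0e-05, adjusted p = 0.00032; Spearman's rho = 0.80, permutation p = 1.0e-04, adjusted p = 0.0016). With the 2 samples farthest from the median left out r was 0.74, and within diets it was 0.87. No other pair passed after adjustment. In duodenum r was 0.57 for miR-10a and miR-10b and 0.57 for miR-10a and miR-196a (adjusted permutation p = 0.057 for both). In mammary gland miR-196a and miR-196b had r = 0.14 (permutation p = 0.59, adjusted p = 0.78). Because the alignment allowed mismatches, miR-10a and miR-10b could share reads, and the part of this in their r was not tested. Sharing of reads between miR-196a and miR-196b was not tested either. Jejunum was left out because its samples fell into separate clusters.

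Diet was compared by an F test within each tissue. Of the 16 tests of members 1 passed, miR-196a in jejunum (adjusted p = 0.013), where 23.7% of all miRNAs passed. In rumen 1.47% of all miRNAs passed, in mammary gland 3.66%, and in duodenum and liver 0 (37 and 17 miRNAs had an unadjusted p under 0.05). None of the members in rumen (4), mammary gland (4), duodenum (3) and liver (2) passed with limma. Of these, miR-10b in rumen and miR-10b in mammary gland had an unadjusted p under 0.05. edgeR passed none of these 13 either and DESeq2 passed 1, miR-10b in mammary gland.

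In jejunum miR-196a was at 7.58 to 23.9 CPM on rice straw, with a median of 12.3, at 13.2 to 324 CPM on corn stover, with a median of 113, and at 4.21 to 26.3 CPM on alfalfa hay, with a median of 14.5. Corn stover exceeded rice straw by 2.41 ± 0.68 (adjusted p = 0.014), a contrast in which 28.8% of all miRNAs passed, and alfalfa hay by 2.45 ± 0.68 (adjusted p = 0.012), where 22% passed. Alfalfa hay differed from rice straw by -0.05, with an interval from -1.46 to 1.36, and 0 of 337 miRNAs passed with limma in that contrast (18 had an unadjusted p under 0.05, and 0 members passed with edgeR or DESeq2). The difference between jejunum and duodenum in miR-196a varied with diet in an interaction test (adjusted p = 0.024, with 20.5% of all miRNAs passing), at 4.54 ± 0.95 on corn stover, 1.70 ± 0.55 on rice straw and 1.68 ± 0.48 on alfalfa hay.

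These diet differences rested on corn stover replicates 1, 2 and 6. Without them the adjusted p of miR-196a was 0.62 over the 3 diets and 0.66 for the interaction, and the differences were 0.50 against rice straw (adjusted p = 0.50) and 0.55 against alfalfa hay (adjusted p = 0.46). For miR-10a in jejunum, corn stover exceeded rice straw by 0.69 ± 0.29 (adjusted p = 0.075) and alfalfa hay by 0.63 ± 0.29 (adjusted p = 0.11). edgeR called both (1.18 and 1.05, adjusted p = 0.017 and 0.031), and so did DESeq2 (1.14 and 1.01, adjusted p = 0.0048 and 0.015). Without the 3 libraries the signs turned, to -0.14 and -0.20. miR-10b differed by 0.34 between corn stover and rice straw, with an interval from -0.49 to 1.17, and by 0.54 between alfalfa hay and rice straw, with an interval from -0.29 to 1.37.

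In mammary gland miR-10b was at 54394 to 160303 CPM on rice straw, at 49952 to 70307 CPM on corn stover and at 71908 to 235766 CPM on alfalfa hay. The corn stover and alfalfa hay samples did not overlap, and the rice straw samples fell into 4 at 139419 CPM or more and 2 at 67274 CPM or less. The F test missed the threshold with limma (adjusted p = 0.092) and with edgeR (adjusted p = 0.061) and passed with DESeq2 (adjusted p = 0.012). It passed with limma on leaving out rice straw replicate 3 (adjusted p = 0.033) or alfalfa hay replicate 1 (adjusted p = 0.031), and was at 0.14 without the 3 libraries with many miRNAs at 0, which together with rice straw replicate 4 had the 4 highest values. Those 4 libraries were also the shallowest of this tissue, at 937556 to 2624975 mapped reads against 4421565 or more in the others. The part of depth in their miR-10b was not tested. Markers moved with the 3 libraries with many miRNAs at 0 too. miR-126-3p of endothelium was at 1295 to 2396 CPM there against 3661 to 13853 CPM in the other 15, and miR-145 of smooth muscle was at 336 to 437 CPM against 753 to 2422 CPM. The ranges also did not overlap for miR-142-3p (19.6 to 52.8 CPM against 65.9 to 460 CPM), miR-133b (0 to 0.53 CPM against 0.73 to 4.57 CPM) and miR-499 (0.53 to 1.31 CPM against 3.43 to 25.7 CPM), which were lower. In the 3 libraries 3 reads were worth 1.60 to 3.20 CPM, so miR-133b and miR-499 were at the counting floor there. In all, 5 of the 29 marker miRNAs listed were lower without overlap, and no marker was higher in all 3. No share over all listed miRNAs is given beside this count. The other members of the endothelium and smooth muscle lists had higher medians in the 3 libraries, with overlapping ranges. The median of miR-126-5p was 42290 CPM against 27720 CPM, and that of miR-143 was 187604 CPM against 122403 CPM. Of the related miRNAs outside the HOX clusters described below, miR-125a was at 895 to 1200 CPM against 2447 to 7897 CPM and miR-125b at 693 to 886 CPM against 1688 to 9305 CPM. The others overlapped and went both ways. Their medians were 4309 against 1866 CPM for miR-99a-5p, 2885 against 2049 CPM for miR-99b and 1123 against 1504 CPM for miR-100. The part of these in miR-10b was not tested. miR-196b was at 19.2 to 130 CPM on rice straw, 37.9 to 90.03 CPM on corn stover and 30.1 to 129 CPM on alfalfa hay (adjusted p = 0.95), so the diets overlapped fully.

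In rumen miR-10b had medians of 20667 CPM on rice straw, 25585 CPM on corn stover and 33880 CPM on alfalfa hay, with overlapping ranges (limma adjusted p = 0.20). miR-615 had medians of 2.35, 2.68 and 1.56 CPM in the same order (limma adjusted p = 0.55). The log2 ratio of miR-10a to miR-10b was compared between diets in 15 pairs by an exact two-sided permutation test, in which 6 against 6 samples cannot go below 0.00216. In 1 pair it passed adjustment, alfalfa hay against corn stover in jejunum, with a difference of -0.84 ± 0.28 (SE, n = 6, exact p = 0.00216, adjusted p = 0.032). There the 6 corn stover samples, from 0.45 to 0.74, lay above the 6 alfalfa hay samples, from -1.26 to 0.43. The 3 corn stover libraries that stood apart had ratios of 0.45, 0.74 and 0.48, and the other 3 had 0.53, 0.72 and 0.54.

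The miRNAs closest to each member over the samples were found by Spearman's rho, as a description with no test, over samples that share their tissues. Over 90 samples miR-10a was closest to miR-181c (0.75), miR-181d (0.75) and miR-132 (0.74), and farthest from miR-148a (-0.71), among 288 miRNAs. miR-10b was closest to miR-6522 (0.82), miR-96 (0.74) and miR-182 (0.73), which are also highest in mammary gland, and farthest from miR-505 (-0.80). Over the 72 samples of the 4 tissues that list it, miR-196a was closest to miR-139 (0.72), miR-181b (0.72) and miR-10b (0.69), and farthest from miR-17-5p (-0.72). In the 18 mammary gland samples miR-196b was closest to miR-6524 (0.61), miR-152 (0.58) and miR-363 (0.56), and farthest from miR-6522 (-0.57). In the 18 rumen samples miR-615 was closest to miR-6529 (0.78), miR-421 (0.67) and miR-148a (0.66), and farthest from miR-2284y (-0.72).

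miR-99a-5p, miR-99b and miR-100, related in sequence to miR-10 but encoded outside the HOX clusters, were followed with their neighbours miR-125a and miR-125b. Between duodenum and jejunum 0 of these 5 passed with limma, with edgeR or with DESeq2, and 1 of 5, miR-99a-5p, had an unadjusted limma p under 0.05 (adjusted p = 0.093). Their median difference was -0.19 against 0.03 for all miRNAs, and 0.06 against 0.06 without the 3 jejunum libraries. All 5 were lower in jejunum than in rumen and higher in mammary gland than in duodenum and jejunum, with medians of -0.80, 1.01 and 1.27 against -0.11, -0.0047 and -0.02 for all miRNAs. Without the 3 libraries 2 of 5 passed for jejunum against rumen, where 74.1% of all miRNAs passed, and 3 of 5 for mammary gland against jejunum, where 68.6% passed. On corn stover in jejunum, where miR-196a was higher, all 5 were lower than on rice straw (median -1.17) and than on alfalfa hay (median -1.40), against medians of -0.18 for all miRNAs in both contrasts. All 5 passed with limma in both contrasts, and against alfalfa hay also with edgeR and DESeq2, but against rice straw edgeR called 3 of 5 and DESeq2 4 of 5. The largest of these differences were in miR-99b, at -1.44 ± 0.20 and -1.73 ± 0.20. Without corn stover replicates 1, 2 and 6 the adjusted p passed for 2 of 5 against rice straw, miR-99b (-1.24) and miR-100 (-1.23), and for 5 of 5 against alfalfa hay, with medians of -0.60 and -0.83 against -0.05 and -0.06 for all miRNAs. The share of all miRNAs passing was then 10.4% against rice straw and 11% against alfalfa hay.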

How the data were processed

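Small RNA of 90 samples was sequenced (TruSeq libraries). The authors filtered reads with CASAVA 1.8, trimmed adaptors, aligned reads over 15 nt to bovine precursors of miRBase version 22 with sRNAbench, allowing 2 mismatches and up to 10 mappings, and divided by the total of mapped miRNA reads, so the deposited values are CPM. The paper calls them raw counts, but they were not whole numbers. In every library each CPM was a whole multiple of 1 step (tolerance 0.02), taken as 1 read, which gave the depth and the reads for edgeR 4.0.16 and DESeq2 1.42.0. The step was the largest at which 100% of the values came out whole. That the reads of no library had a common divisor above 1 follows from this choice, and neither is a separate check that 1 step is 1 read. A stricter check, which asks for 100 values within 20 times the lowest and takes the lowest as 1 read, was met by 6 of the 90 libraries: 76 held fewer such values, and in 35 the lowest value was more than 1 read. The tests on reads were therefore alternatives only. Intervals of depth cover counting error only.

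Groups came from the labels. Per the paper the 5 tissues came from the same 18 cows, but no source used here states that equal numbers are 1 cow, and no batch is given. No pair of libraries was identical. The main test was limma 3.58.1 (R 4.3.3, intensity trend) on log2(CPM + 1) with Benjamini-Hochberg adjustment, and for ratios permutation tests (scipy 1.17.1, numpy 2.4.6). The limma fit as reported and the edgeR and DESeq2 fits were tested on simulated data, and the other alternatives were not. The members and lists were chosen with earlier results of these data known, and named miRNAs are the members, their nearest and farthest miRNAs by rho, and the lists, other than miR-31. Gene positions are RefSeq's. Alternatives were pseudocounts of 0.1 and 5 CPM, upper-quartile and TMM scaling, a mean of at least 10 CPM, edgeR, DESeq2, a replicate block, single diets and leaving out libraries.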

Additional observations from a re-analysis of the deposited data

Results flagged for a closer look

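In groups of 6 samples, the highest or lowest sample was set apart where its gap to the nearest other, over the range, exceeded Dixon's critical value. This happened in 8 of 48 groups of a member, a tissue and a diet, each time for the highest sample. Chance sets apart about 1 in 20 where values are normal and groups independent. The rule was used on CPM without a log, and members share libraries, so that rate need not hold here. In liver the values set apart were miR-10a at 8685 CPM in corn stover replicate 5, and miR-10b at 6005 CPM in the same library, at 2753 CPM in rice straw replicate 2 and at 3938 CPM in alfalfa hay replicate 2. In jejunum they were miR-10b at 64189 CPM and miR-196a at 23.9 CPM, both in rice straw replicate 5. In mammary gland it was miR-10b at 235766 CPM in alfalfa hay replicate 1, which was the shallowest library, and in rumen miR-615 at 4.85 CPM in alfalfa hay replicate 3.

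The difference between jejunum and duodenum in miR-196a differed between diets by an interaction test in limma (adjusted p = 0.0236), and with 3 corn stover jejunum libraries left out the adjusted p was 0.66.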

How the results depend on the processing

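The 23 member calls between tissues numbered 19 to 23 under every alternative run, with the exceptions named beside the results. Of the 16 diet tests, 1 passed as reported, 2 with edgeR, 3 with DESeq2, 2 with the replicate block and 0 without the 3 jejunum libraries, and 1 to 2 with single samples left out. Of the 9 jejunum diet contrasts 2 passed, 4 with edgeR, 4 with DESeq2, 0 without those 3 libraries and 2 to 4 with single samples left out. The interaction count went from 1 to 0 without them. The test added by the replicate block was miR-10b in mammary gland (adjusted p = 0.039), and it changed no other call. No source used here ties the numbers to cows, and 80 of 180 same-number pairs across tissues had a correlation above 0.1, with 14 of 18 for duodenum and jejunum (median 0.24, against -0.045 for other numbers) and 11 of 18 for liver and mammary gland (0.13 against -0.037). The median was higher for equal numbers in 9 of 10 pairs of tissues, and in 115 of 360 comparisons, where equal chances give 60, a sample correlated best with its own number among 6, a hint of pairing from the data.

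Signs turned only in differences that had not passed with limma. For duodenum against rumen these were miR-196a with a pseudocount of 0.1 CPM (-0.028) and within corn stover (-0.38), and miR-10a with edgeR (0.11) and DESeq2 (0.10). In jejunum without the 3 libraries, corn stover against rice straw gave -0.14 for miR-10a and -0.51 for miR-10b, and against alfalfa hay -0.20 for miR-10a. In all jejunum libraries, miR-196a on alfalfa hay against rice straw gave 0.076 with edgeR and 0.093 with DESeq2. In the same order miR-10b on corn stover against alfalfa hay gave 0.10 and 0.060. With single jejunum samples left out, alfalfa hay against rice straw gave -0.26 to 0.22 for miR-196a and -0.050 to 0.11 for miR-10a. The cause was not tested.

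Upper-quartile scaling moved the median of all miRNAs by up to 0.66, for liver against rumen (from -0.43 to 0.23), where higher calls went from 90 of 257 to 148 of 259. TMM scaling moved the higher calls of corn stover against rice straw in jejunum from 31 of 97 to 63 of 98. The 5 tissues came from the same 18 cows, and apart from the replicate block the tests between tissues treated their samples as independent. Depth limits miR-615 and, in rumen and duodenum, miR-196a.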
